A study of Homo sapiens with 12 samples.

Results

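The 10 genes described here encode enzymes of glycolysis, the cytosolic pathway that splits glucose into pyruvate, together with lactate dehydrogenase A. They are HK2, GPI, ALDOA, TPI1, GAPDH, PGK1, PGAM1, ENO1, PKM and LDHA, and they were chosen by name, each through its Ensembl gene identifier, from the 56632 genes listed for every library. All 10 passed the filter on low counts, which kept 16275 genes. The list was built around GAPDH, which the study used as an mRNA that CBFB does not bind, and PKM, which it named among the bound mRNAs. The measurements are RNA sequencing of sucrose gradient fractions of MCF10A, an established, non-tumorigenic human mammary epithelial line. The WT groups were unedited MCF10A cells, and the CBFB_KO groups were MCF10A cells in which CRISPR-Cas9 had disrupted CBFB, the gene for a partner subunit of the RUNX transcription factors. The knockout cells were grown from selected single-cell colonies, so genotype and colony cannot be told apart. Both genotypes were grown in the same medium and treated with cycloheximide, which holds ribosomes on the mRNA, before lysis. The free fraction holds RNA without a complete ribosome, the mono fraction mRNA with a single ribosome, and the poly fraction pooled mRNA with several. Each of the 6 groups (WT free, WT mono, WT poly, CBFB_KO free, CBFB_KO mono and CBFB_KO poly) had 2 libraries, numbered in the labels, giving 12 libraries. Nothing in the labels says that the replicates came from separate cultures, so the p-values measure the spread between these libraries only.

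Glycolysis has a preparatory phase, which spends ATP to phosphorylate and split glucose, and a payoff phase, which returns ATP and NADH. HK2, GPI, ALDOA and TPI1 act in the first phase, GAPDH, PGK1, PGAM1, ENO1 and PKM act in the second, and LDHA turns pyruvate into lactate and renews NAD+. An mRNA under active translation carries several ribosomes and sediments in the poly fraction, so the ratio of poly to free RNA is read as a measure of translation. Proliferating epithelial cells are known for high levels of these mRNAs, and the muscle-type pyruvate kinase gene PKM is their main source of pyruvate kinase.

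The sequences around the start codon are shown because ribosomes assemble there before an mRNA can move into the poly fraction. They were read from GENCODE release 29 transcripts, 1 coding transcript per gene, 5′ to 3′, with 9 bases before and 12 bases after the start codon, which is in capitals.
HK2: cgcggcaggATGattgcctcgcat
GPI: agtcccgccATGgccgctctcacc
ALDOA: accagcaccATGccctaccaatat
TPI1: tccagcgccATGgcgccctccagg
GAPDH: tcagacaccATGgggaaggtgaag
PGK1: atttccaaaATGtcgctttctaac
PGAM1: cccgccgccATGgccgcctacaaa
ENO1: aagttcaccATGtctattctcaag
PKM: tcagcagccATGtcgaagccccat
LDHA: aagtccaatATGgcaactctaaag
All 10 had a purine 3 bases before the start codon, as did 84.0% of the 12998 tested genes with a coding transcript. A G directly after the start codon was present in 5 of the 10 (GPI, TPI1, GAPDH, PGAM1 and LDHA), against 52.8% of the tested genes. GAPDH has the G and PKM a T there. In both features the members were like most tested genes.

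On GRCh38 (GENCODE release 29), PKM lies on chromosome 15 from 72199029 to 72231822 on the minus strand and GAPDH on chromosome 12 from 6533927 to 6538374 on the plus strand, close to TPI1 on the same chromosome and strand (6867119 to 6870948). The study measured PKM mRNA by PCR. In the gradient fractions it reported a larger free share in CBFB_KO for the other bound mRNAs tested, but not for PKM. The level of PKM protein did not fall either. For GAPDH mRNA it reported no change of the spread over the fractions. Those PCR values are shares of an mRNA over the fractions, unlike the levels within a fraction given below. The sequences of the primer pair are shown because they mark the part of PKM that the PCR read.
PKM forward primer: ggaagtgggcagcaagatct
PKM reverse primer: aggaagtcggcacctttctg
In the transcript PKM-201, both primers matched the coding part at 1 site each, at bases 1004 to 1023 and 1059 to 1078, which gives a product of 75 bases. Each site was present in 8 of the 14 coding PKM transcripts of the release, the forward one in transcripts of 2 genes in all and the reverse one in PKM alone. The libraries count the whole gene, so these values do not depend on that product.

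Depth and purity limited the free fraction. Libraries held between 41050325 and 63886726 expected counts. RNA encoded by the mitochondrial genome made up 71.56% and 87.22% of CBFB_KO free replicates 1 and 2 and 1.26% to 20.81% of the 10 other libraries. This left 13568143 and 5247878 counts from other genes in those replicates, against at least 43279862 in any other library. The CBFB_KO poly libraries were nearly the same, with a mean chi-square per gene of 2.209 between them against 118.8 to 902 for the other pairs, so the members' results that use them are also given with the pair as 1 sample where that changed a call, and so are the calls of the other genes named. As for the cell type, all 6 genes of the basal list had counts in every library, and so did the 3 luminal ones (KRT8, KRT18 and EPCAM). The basal list includes CDH1, an epithelial gene that is not particular to basal cells. PTPRC and COL3A1 were at 0 in all 12, CD3E reached 3 counts and COL1A1 320, and PECAM1 was not matched. CBFB itself was counted in every library, at 288 to 982 counts in WT and 139 to 340 in CBFB_KO, and its mRNA did not pass the test between genotypes in the free, mono or poly fraction (edgeR, adjusted p of 0.373, 1.0 and 1.0). A CRISPR edit can remove a protein without removing the mRNA, so these counts do not check the knockout.

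Levels of different genes were compared as TPM, which is per length, rescaled so that genes outside the mitochondrial genome sum to 1000000. GAPDH, which oxidises glyceraldehyde-3-phosphate, was the highest of the 10 in 11 of 12 libraries. Its TPM was 6278 and 3440 in WT free, 2056 and 1746 in WT mono, 8174 and 8334 in WT poly, 3610 and 714 in CBFB_KO free, 1326 and 1149 in CBFB_KO mono, and 6437 and 6392 in CBFB_KO poly. In the remaining library, CBFB_KO free replicate 2, PKM was the highest. PKM, which makes pyruvate and ATP from phosphoenolpyruvate, was at a TPM of 462 and 692 in WT free, 194 and 93.7 in WT mono, 1402 and 1542 in WT poly, 3462 and 1328 in CBFB_KO free, 157 and 92.1 in CBFB_KO mono, and 849 and 836 in CBFB_KO poly. In WT the PKM level was highest in poly and lowest in mono, whereas in CBFB_KO replicate 1 and 2 alike it was highest in the free fraction. That order in CBFB_KO depends on the scaling. With the TPM as deposited, PKM was at 463 and 79.9 in CBFB_KO free, below the 829 and 816 in CBFB_KO poly. The means of the rescaled TPM were 577 ± 163 in WT free and 2395 ± 1509 in CBFB_KO free (SD, n = 2), a log2 difference of 2.05. It becomes -0.75 with the TPM as deposited, where mitochondrial RNA counts in the total. In bulk fractions fewer cells with an mRNA and less of it per cell cannot be told apart.

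**Figure D1:**
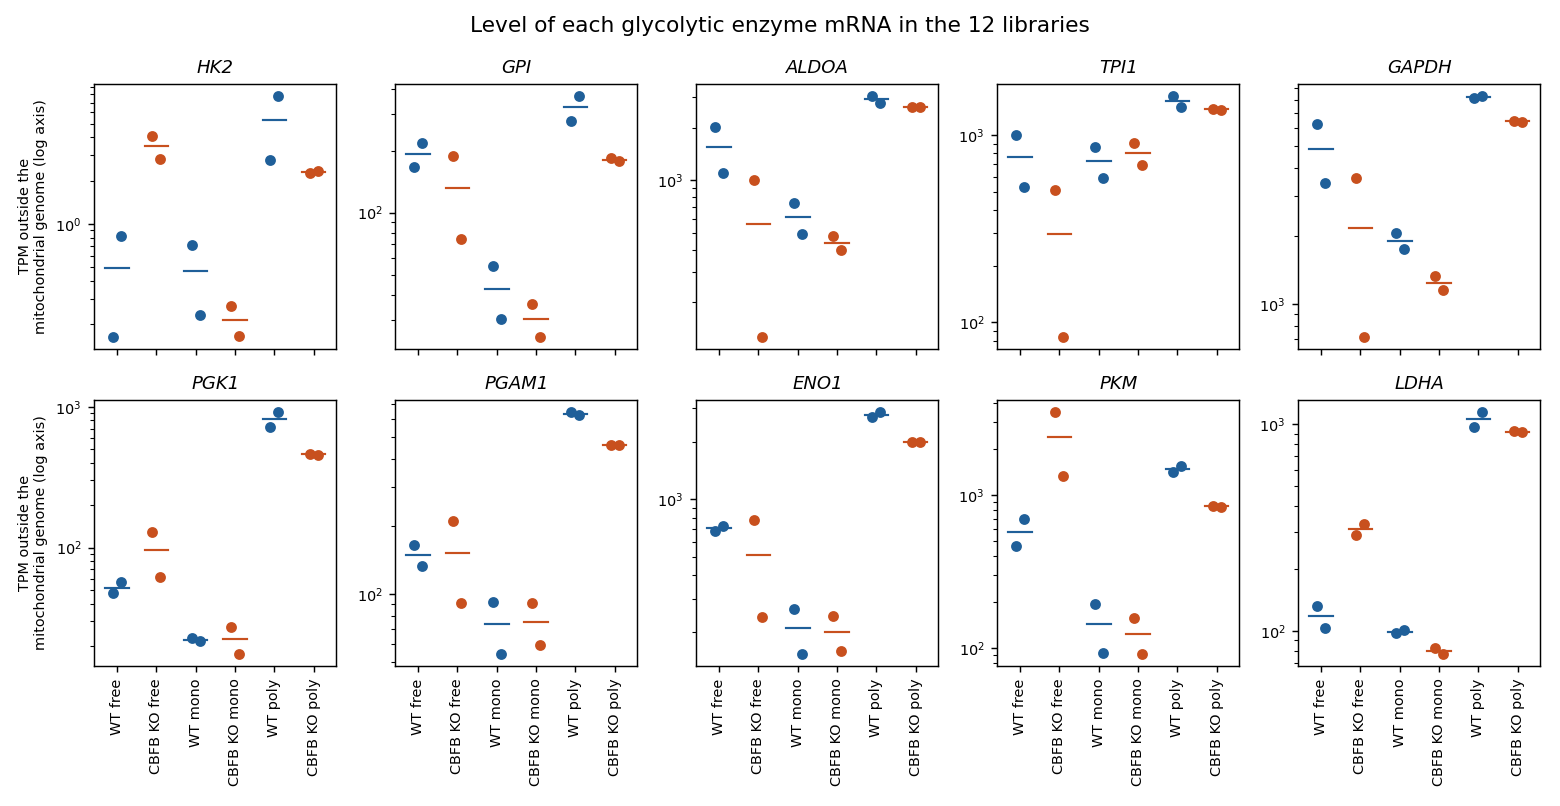
Level of each enzyme mRNA in the 12 libraries, as TPM rescaled outside the mitochondrial genome, on a log axis that differs between panels. Points are libraries, lines are means of 2, blue is WT and orange CBFB_KO. The lowest library is a mono library for 6 genes, CBFB_KO free replicate 2 for ALDOA, TPI1 and GAPDH, and WT free replicate 1 for HK2, while 9 genes are highest in a WT poly library and PKM is highest in CBFB_KO free replicate 1.

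In the preparatory phase, the mRNA of HK2, a hexokinase that phosphorylates glucose, was the lowest of the 10 in every library, at a TPM between 0.162 and 7.83. Its counts ran from 62 to 2348 and were the fewest of the 10 in every library. GPI, which converts glucose-6-phosphate into fructose-6-phosphate, ranged from 24.8 to 370 TPM. ALDOA, the aldolase that splits fructose-1,6-bisphosphate, ranged from 127 to 3060 TPM and TPI1, which interconverts the resulting trioses, from 83.4 to 1630 TPM, and both had their lowest value in CBFB_KO free replicate 2. In the payoff phase, PGK1, which makes the first ATP, ranged from 17.6 to 914 TPM, PGAM1, a phosphoglycerate mutase, from 54.3 to 643 TPM, and ENO1, an enolase, from 155 to 2860 TPM. LDHA ranged from 77.7 to 1140 TPM. All of these but PKM reached their highest level in a WT poly library. Together the 10 genes took 0.574% to 2.81% of the counts outside the mitochondrial genome, most in the poly fraction (2.34% to 2.81%). The mono fraction (0.574% to 0.849%) and the free fraction (0.594% to 1.63%) overlapped, through CBFB_KO free replicate 2 at 0.594%.

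The first question was how these mRNAs are spread over the gradient in WT. The test was edgeR's quasi-likelihood test on the rounded expected counts of all 12 libraries, with Benjamini-Hochberg adjustment over all 16275 genes and a threshold of 0.05. Values for single libraries are TMM-normalized CPM, that is, counts per 1000000 of the library's effective size. In WT 5 of the 10 were higher in poly than in free and 0 lower, where 14.0% of all genes were called higher and 7.99% lower. The median log2 change of the members was 1.22, against 0.08 over all genes. PGK1 had the largest change. Its CPM was 65.6 and 67.4 in WT free and 592 and 662 in WT poly, a log2 change of 3.24 ± 0.36 (SE, adjusted p = 0.00111). The poly libraries were both above the free ones. HK2 followed with 0.885 and 3.63 CPM in free against 10.65 and 25.9 in poly (3.02 ± 0.63, adjusted p = 0.008), and LDHA with 179 and 106 against 853 and 875 CPM (2.60 ± 0.42, adjusted p = 0.00256). The fractions did not overlap for these 3, nor for PGAM1, ENO1, PKM and GPI, of which PKM and GPI did not pass. The share of all genes without such overlap was not counted. PGAM1 (1.59 ± 0.44, adjusted p = 0.0246) and ENO1 (1.52 ± 0.45, adjusted p = 0.0336) also passed, and they did not without WT replicate 1 (adjusted p of 0.124 and 0.192) or without WT replicate 2 (0.142 and 0.171). GAPDH did not pass, with 6810 and 2958 CPM in free and 6092 and 5461 in poly (0.24 ± 0.57, adjusted p = 0.793). Its value ran from -0.09 to 0.91 with a replicate left out and was -0.25 with upper-quartile factors, while its TPM was higher in both WT poly libraries than in both WT free ones. ALDOA (0.32), TPI1 (0.46), GPI (0.47) and PKM (0.91 ± 0.43, adjusted p = 0.145) did not pass either.

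In CBFB_KO 7 of the 10 were higher in poly than in free and 0 lower, where 14.6% of all genes were called higher and 16.7% lower. The members' median log2 change was 1.99, against -0.12 over all genes. They were TPI1 (2.67 ± 0.66), ALDOA (2.64 ± 0.71), ENO1 (2.40 ± 0.46), GAPDH (2.06 ± 0.59), PGAM1 (2.03 ± 0.44), LDHA (1.95 ± 0.41) and PGK1 (1.85 ± 0.35), with adjusted p between 0.00271 and 0.0218. The 3 others were GPI (0.99, adjusted p = 0.0747), HK2 (-0.23, adjusted p = 0.79) and PKM. PKM had 3686 and 1747 CPM in CBFB_KO free and 1273 and 1251 in CBFB_KO poly (-1.11 ± 0.43, adjusted p = 0.0704). Both free libraries were thus above both poly libraries for PKM, and the call depended on the scaling, since the decrease passed with RLE factors (-1.23, adjusted p = 0.0341) and upper-quartile factors (-1.31, adjusted p = 0.0264) and became an increase of 0.96 with library size alone. None of the 7 increases passed without CBFB_KO replicate 2, whose free library had the highest mitochondrial share. Compared with a single CBFB_KO poly sample, 5 of the 7 passed, without ALDOA (adjusted p = 0.0532) and GAPDH (adjusted p = 0.0736).

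**Figure D2:**
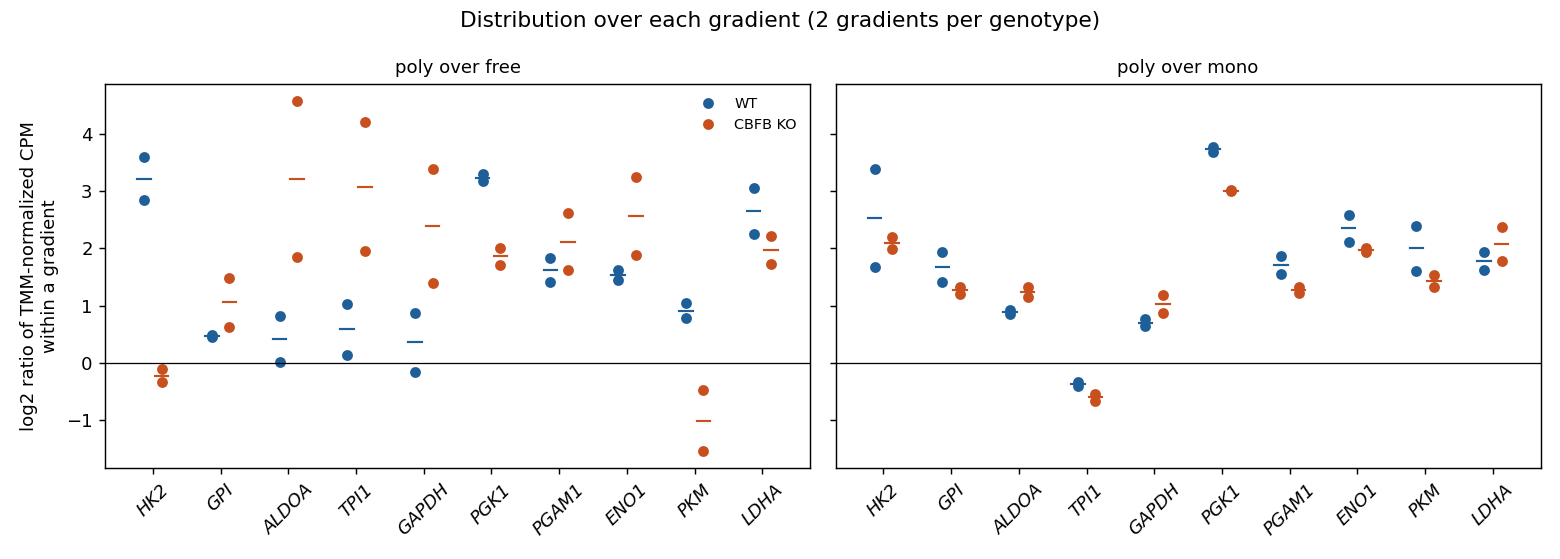
Log2 ratio of TMM-normalized CPM of poly over free (left) and poly over mono (right) for libraries of the same genotype and replicate number, taken as 1 gradient. Points are gradients and short lines the mean of 2. On the left the WT and CBFB_KO points of HK2 (2.84 and 3.59 against -0.34 and -0.11) and PKM (0.78 and 1.05 against -1.53 and -0.48) lie apart with CBFB_KO lower. Those of PGK1 and LDHA do the same. The points of ALDOA, TPI1, GAPDH, ENO1 and GPI lie apart with CBFB_KO higher, and those of PGAM1 overlap. The share of all genes whose points lie apart was not counted. On the right the TPI1 points are all below 0.

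Against the mono fraction most members were higher in poly in either genotype. In WT 7 of the 10 were higher in poly than in mono and 0 lower (all genes: 11.0% higher and 9.68% lower), and in CBFB_KO 6 and 0 (all genes: 8.20% higher and 8.66% lower). PGK1 again had the largest change, with 45.7 and 48.6 CPM in WT mono (3.73 ± 0.37, adjusted p = 0.00313) and 50.3 and 48.4 in CBFB_KO mono (3.01 ± 0.36, adjusted p = 0.00571). ENO1 (2.32 and 1.97), LDHA (1.77 and 2.05), HK2 (2.65 and 2.09), PKM (1.94 and 1.42) and GPI (1.66 and 1.27) passed in WT and in CBFB_KO, in that order of values, and PGAM1 (1.69 and 1.27) in WT. TPI1 was the exception in sign. It had 1638 and 1308 CPM in WT mono against 1292 and 984 in WT poly (-0.37 ± 0.62, adjusted p = 0.703), and 1634 and 1764 in CBFB_KO mono against 1127 and 1117 in CBFB_KO poly (-0.60 ± 0.62, adjusted p = 0.541). Scaled by library size alone, these TPI1 values became 0.49 and 0.34, so their direction rests on the scaling. The CBFB_KO calls were lost with the poly pair as 1 sample (0 of 10, with the smallest members' adjusted p at 0.0709 for PGK1), without CBFB_KO replicate 1 and without CBFB_KO replicate 2. The WT count fell to 2 (HK2 and PGK1) without WT replicate 1 and to 0 without WT replicate 2.

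The second question was whether the loss of CBFB changed these mRNAs within a fraction. The free fraction held all the members called between genotypes. In CBFB_KO free 5 of the 10 were lower and 2 higher than in WT free. These counts stand against a background in which 18.1% of all genes were called lower and 24.2% higher. The members' median log2 change was -0.93, against 0.04 over all genes. The 5 lower ones included 3 of the 4 preparatory enzymes. ALDOA had 2036 and 932 CPM in WT free and 493 and 74.4 in CBFB_KO free (-2.39 ± 0.71, adjusted p = 0.0213). TPI1 had 1170 and 481 CPM in WT free and 292 and 60.6 in CBFB_KO free (-2.23 ± 0.65, adjusted p = 0.0199). For both, the CBFB_KO libraries were below the WT libraries, with replicate 2 far below replicate 1. GPI had 274 and 295 CPM in WT free and 173 and 92.6 in CBFB_KO free (-1.10 ± 0.39, adjusted p = 0.0432). In the payoff phase GAPDH had 6810 and 2958 CPM in WT free and 1891 and 471 in CBFB_KO free (-2.05 ± 0.59, adjusted p = 0.0191), and ENO1 1083 and 892.5 against 613 and 237 (-1.22 ± 0.45, adjusted p = 0.0468). By CPM none of the 5 overlapped, and 31.5% of all tested genes were lower in CBFB_KO free without overlap. As TPM outside the mitochondrial genome the genotypes overlapped for GPI, GAPDH and ENO1, and that share was 18.5%.

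PKM and HK2 went the other way in the free fraction. PKM had 985 and 1141 CPM in WT free and 3686 and 1747 in CBFB_KO free, a 2.56-fold difference (log2 1.35 ± 0.43, adjusted p = 0.0285). HK2 had 0.885 and 3.63 CPM in WT free and 11.3 and 9.91 in CBFB_KO free, a 4.70-fold difference (log2 2.23 ± 0.62, adjusted p = 0.0164). Neither gene's libraries overlapped between genotypes, also as TPM, and the same held for PGK1 and LDHA. Of all tested genes 37.4% were higher in CBFB_KO free without overlap by CPM and 41.1% by TPM. PGK1 (65.6 and 67.4 against 123 and 97.9 CPM, log2 0.73, adjusted p = 0.0965) and LDHA (179 and 106 against 198 and 274 CPM, log2 0.73, adjusted p = 0.157) were higher in both CBFB_KO libraries without passing, and PGAM1 (log2 -0.77, adjusted p = 0.166) overlapped. The median of all genes in this comparison moved to -1.57 with library size alone, and there PKM (-0.17), PGK1 (-0.90) and LDHA (-1.02) turned negative while HK2 stayed at 0.54 (adjusted p = 0.557). With the library size outside the mitochondrial genome that median was 0.43, and the members called were ALDOA, TPI1 and GAPDH lower and HK2, PKM, PGK1 and LDHA higher. The calls changed with single libraries. Without WT replicate 1 HK2 alone passed, without CBFB_KO replicate 2 PKM alone passed (log2 1.80, adjusted p = 0.0347), without CBFB_KO replicate 1 the 5 lower ones alone passed (PKM at 0.71, adjusted p = 0.264), and without WT replicate 2 ALDOA, TPI1, GAPDH and HK2 passed. A fit on the free libraries alone called 0 of the 10 (PKM adjusted p = 0.211, GAPDH 0.139), and with the CBFB_KO poly pair as 1 sample PKM was at 0.056.

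**Figure D3:**
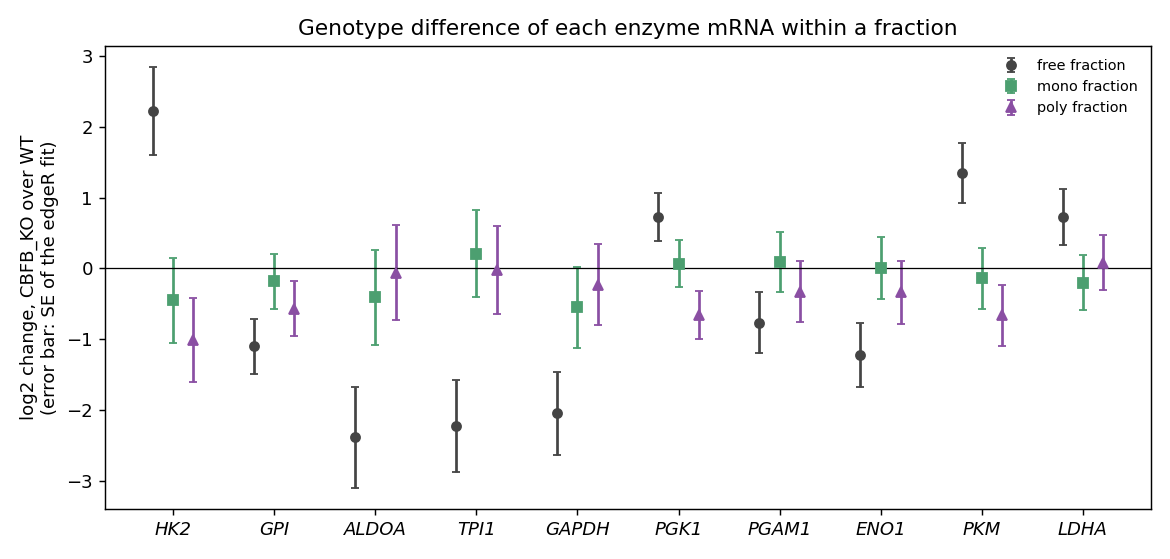
Log2 change of CBFB_KO over WT for each enzyme mRNA within the free (circles), mono (squares) and poly (triangles) fraction, with the standard error of the edgeR fit. In the free fraction ALDOA, TPI1 and GAPDH lie between -2.39 and -2.05 and HK2 and PKM at 2.23 and 1.35, while the mono values lie between -0.55 and 0.21 and the poly values between -1.01 and 0.08.

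In the mono fraction 0 of the 10 passed by edgeR, with log2 changes between -0.55 (GAPDH) and 0.21 (TPI1), 0 at an unadjusted p under 0.05 and 0 by DESeq2, where 0.147% of all genes were called in either direction. In the poly fraction 0 of the 10 passed by edgeR, 0 at an unadjusted p under 0.05 and 0 by DESeq2, where 0.190% of all genes were called. The poly values leaned downward for 9 of the 10, with a median log2 change of -0.33 against -0.03 over all genes. HK2 (-1.01 ± 0.59), PGK1 (-0.66 ± 0.34), PKM (-0.66 ± 0.43) and GPI (-0.57 ± 0.39) had the lowest values. PKM had 2035 and 1958 CPM in WT poly and 1273 and 1251 in CBFB_KO poly, and GAPDH 6092 and 5461 against 4939 and 4891. In the poly fraction the libraries of 7 members were lower in CBFB_KO without overlap, and 25.0% of all tested genes did the same. As TPM outside the mitochondrial genome it was 10 of 10, against 36.4% of tested genes. The CBFB_KO values here come from the nearly identical pair. ALDOA and TPI1 turned positive with upper-quartile factors (0.06 and 0.10).

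The study's measure of translation was the change of the poly to free ratio between genotypes. The study counted a decrease by a fixed size of the fall in this ratio, whereas here the edgeR threshold was used. By that threshold 2 of the 10, HK2 and PKM, fell in CBFB_KO and 0 rose, against 14.3% and 4.10% of all genes. In the fit here PGK1 (0.382-fold) would also meet the study's cut. The ratio of PKM was 0.78 and 1.05 on the log2 scale in the WT gradients and -1.53 and -0.48 in the CBFB_KO gradients, with no overlap. The fitted log2 change of its ratio was -2.02 ± 0.61, which is 4.04-fold lower (edgeR, adjusted p = 0.0404). Most of it came from the free arm (1.35) and the rest from the poly arm (-0.66). By the study's PCR the free share of PKM mRNA was not larger in CBFB_KO. That PCR gave shares of an mRNA over the fractions, while the ratio here uses levels scaled within each library. The 2 measures are therefore unlike, and whether they disagree was not tested. The ratio of HK2 was 2.84 and 3.59 in WT and -0.34 and -0.11 in CBFB_KO (-3.24 ± 0.85, 9.48-fold lower, adjusted p = 0.0243). Both ratios were lower in each CBFB_KO gradient than in each WT gradient, as were those of PGK1 and LDHA. How many of all genes separate in this way was not counted, so the separation is a description only. PGK1 had the next lowest value (3.17 and 3.30 against 1.71 and 2.01, a change of -1.39 ± 0.47), which missed the threshold (adjusted p = 0.0612). LDHA was at -0.65 ± 0.56 (adjusted p = 0.409).

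The other 6 had positive values that did not pass. GAPDH had ratios of -0.16 and 0.88 in WT and 1.39 and 3.38 in CBFB_KO (1.82 ± 0.81, adjusted p = 0.124). ALDOA had 0.01 and 0.82 in WT and 1.85 and 4.57 in CBFB_KO (2.32 ± 0.96, adjusted p = 0.104), and TPI1 0.14 and 1.03 against 1.95 and 4.20 (2.21 ± 0.89, adjusted p = 0.0965). In all 3 the CBFB_KO gradients were the higher ones and lay far from each other. ENO1 (0.88), GPI (0.52) and PGAM1 (0.44) had smaller changes, and the gradients of the genotypes overlapped for PGAM1 alone. Here too the share of all genes without overlap was not counted. The members' median was 0.48 and that of all genes -0.10. DESeq2 called GAPDH, ALDOA and TPI1 higher and HK2, PKM and PGK1 lower. The share of all genes that DESeq2 called is not given here, and the shares above are edgeR's, so these calls have no background beside them. The PKM call was lost when any of the 4 replicate numbers was left out (adjusted p from 0.106 to 0.181), with the CBFB_KO poly pair as 1 sample (0.167), with each gradient as a block (-1.93, adjusted p = 0.06), on the 4 groups alone (0.0625) and with library size alone (-0.48, adjusted p = 0.687). HK2 kept its call without WT replicate 1 or 2 and lost it without CBFB_KO replicate 1 (0.114) or 2 (0.206), with the CBFB_KO poly pair as 1 sample (0.11), on the 4 groups alone (0.0579) and with library size alone (-1.57, adjusted p = 0.256). Scaled by library size alone PGK1 (0.24) and LDHA (1.10) turned positive, and the median of all genes moved to 1.54.

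Measured against mono in place of free, the genotypes did not differ detectably. None of the 10 passed by edgeR (0 at an unadjusted p under 0.05, and 0 by DESeq2), and neither did any other gene (0%). The log2 changes ran from -0.72 (PGK1) to 0.35 (ALDOA). The log2 poly to mono ratio of PKM was 1.61 and 2.39 in WT and 1.32 and 1.54 in CBFB_KO (-0.52 ± 0.60), and that of GAPDH 0.77 and 0.64 against 1.18 and 0.87 (0.31 ± 0.80). The standard errors, 0.47 to 0.95 on the log2 scale, leave differences of that size undetectable with 2 libraries a group.

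Ratios within a library need no scaling between libraries, so each member was also set against GAPDH. GAPDH was itself called lower in CBFB_KO free (log2 -2.05 by the edgeR fit), so each ratio there also holds the change of GAPDH. The TPM ratio of PKM to GAPDH was 0.0736 and 0.201 in WT free and 0.959 and 1.86 in CBFB_KO free, an 11.0-fold difference between the mean logs. The CBFB_KO free libraries were the highest of all 12. Elsewhere the ratio was 0.0942 and 0.0537 in WT mono, 0.118 and 0.0801 in CBFB_KO mono, 0.172 and 0.185 in WT poly, and 0.132 and 0.131 in CBFB_KO poly. In the poly fraction it was thus lower in CBFB_KO (0.737-fold) and in the mono fraction the genotypes overlapped. An exact two-sided permutation test of 2 against 2 libraries gave p = 0.33 for the free fraction, the smallest it can give, so the design cannot pass 0.05 in this way. In the free fraction HK2 (27.1-fold), LDHA (7.65-fold), PGK1 (5.01-fold), PGAM1 (2.72-fold) and ENO1 (1.78-fold) were also higher relative to GAPDH in both CBFB_KO libraries. The HK2 value rests on 62 and 282 counts in WT free, where its ratios to GAPDH were far apart (2.58e-05 and 0.000238). TPI1 (0.820-fold) and ALDOA (0.691-fold) were lower, and GPI (1.80-fold) overlapped. In the edgeR fit PGAM1 (log2 -0.77) and ENO1 (-1.22, called lower) were not higher in CBFB_KO free. The share of all genes higher relative to GAPDH was not counted. ALDOA kept nearly the same ratio to GAPDH in the WT free libraries, 0.323 and 0.319, although the level of GAPDH itself differed between them.

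**Figure D4:**
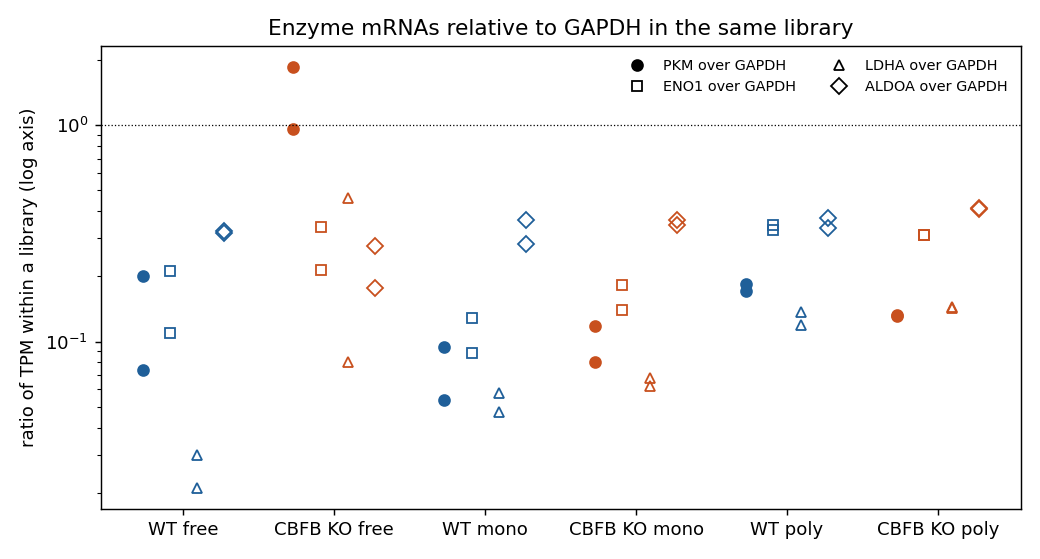
TPM of PKM (filled circles), ENO1, LDHA and ALDOA divided by the TPM of GAPDH in the same library, on a log axis, blue for WT and orange for CBFB_KO, with 2 points per group. PKM over GAPDH is 0.959 and 1.86 in CBFB_KO free and at most 0.201 in every other library, while ALDOA over GAPDH stays between 0.177 and 0.413 in all 12.

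RSEM averages the estimated transcript length over a gene's transcripts by abundance. It moves when the mix shifts between transcripts of different length. A shift between transcripts of equal length leaves it unchanged, so a steady length does not show a steady mix. PKM stayed between 2249 and 2301 bases and GAPDH between 1237 and 1276 bases in all 12 libraries. PGK1 did not. Its length was 1554 and 1690 bases in WT free, 2073 and 2652 in CBFB_KO free and 1359 to 1426 in the mono and poly libraries of both genotypes. TPM divides by this length, so the PGK1 difference in the free fraction depends on it and the CPM does not. HK2 stood at 3060 bases in WT mono replicate 1, where it had 194 counts, and between 5501 and 5772 elsewhere. GPI ranged from 1801 to 2265 bases, LDHA from 1461 to 1717 and ALDOA from 1092 to 1263, so their TPM depends on the length too. Pseudogenes can share reads with their parent gene. Rows named as pseudogenes of a member held at most 1.08% of the joint counts (LDHA, WT poly replicate 2), and at most 0.0674% for GAPDH, although 64 rows are named as its pseudogenes, and 0.00775% for PKM.

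The coding parts of the members were between 747 bases (TPI1) and 2751 bases (HK2) long, with 7 below the median of 1374 bases over the tested genes and HK2, GPI and PKM above it. The spread of poly over mono followed the coding length among all 12998 tested genes with a coding transcript (Spearman's rho of 0.50 in WT and 0.48 in CBFB_KO, across genes that share the same libraries), and rho was 0.58 and 0.47 over the 10 members. PGK1, with 1251 bases, lay above GAPDH, with 1005 bases, in both genotypes. The change of the free fraction between genotypes was related to coding length as well, with rho of 0.40 over all these genes and 0.52 over the members, and to the GC content of the coding part, with rho of -0.42 and -0.48. Among the members GC content ran from 45.1% (LDHA) to 59.5% (ALDOA), with GAPDH at 55.4% and PKM at 55.1%. The part of length and GC content in the free fraction differences was not tested.

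**Figure D5:**
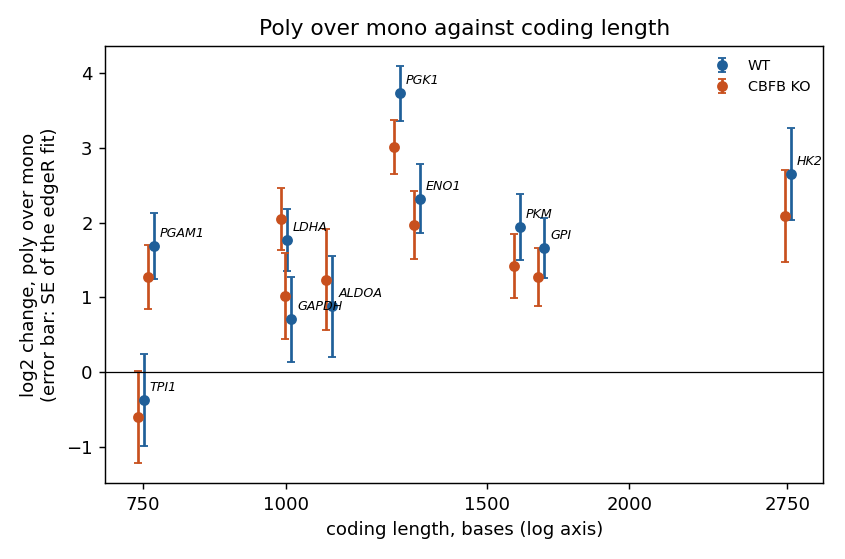
Log2 change of poly over mono in WT (blue) and CBFB_KO (orange) against the coding length of each enzyme mRNA in bases, on a log axis, with the standard error of the edgeR fit. TPI1, with 747 bases, lies lowest (-0.37 and -0.60), and PGK1, with 1251 bases, highest (3.73 and 3.01).

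hnRNPK, the RNA-binding partner through which the study linked CBFB to mRNA, is known to bind runs of C. Runs of at least 4 C (CCCC, counted on the mRNA strand and in the coding part, with touching runs merged) were present in 90.5% of the coding parts of tested genes, at a median of 3.51 per kilobase. PKM held 6 (3.77 per kilobase) and GAPDH 7 (6.97 per kilobase), while PGK1 held 0. The longest of each is shown, in capitals, since the study treated PKM as bound and GAPDH as not bound.
PKM: cgcccacgtgCCCCCatcattgctg
GAPDH: atcatctctgCCCCCtctgctgatg
The run starts at base 1343 of the PKM coding part and at base 368 of the GAPDH coding part, counted from the A of the start codon. Runs of 5 or more were found in 62.6% of the tested coding parts and in 8 of the 10 members. The density of runs in the coding part thus did not place PKM above GAPDH. In RUNX1 mRNA the study mapped the binding to C-rich tracts of the 3′ untranslated region. That region of PKM (621 bases) and GAPDH (201 bases) was not searched here, so the counts cannot speak to binding. A match in these letters is a description of the sequence only.

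Likeness was measured by Pearson's r over the 12 libraries of log2(CPM + 1), among 5978 genes with a mean CPM of at least 10. The gene most like GAPDH was ALDOA (r = 0.991), followed by MICA (0.985) and TDP1 (0.975). Of the other members compared, ENO1 and PGAM1 (both 0.81), TPI1 (0.80) and GPI (0.70) came next, LDHA was at 0.41 and PGK1 at 0.38. PKM (-0.09) was the one member with a negative r. The genes most like PKM were APEX2 (0.979), U2AF2 (0.964) and NECTIN2 (0.963), and its closest member was PGK1 (0.65). HK2 was below the limit of 10 CPM. These r values are over 6 groups of paired libraries and are a description.

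The other genes of the pathway were taken from lists, and in the poly to free ratio 14.3% of all genes were called lower and 4.10% higher. Of 19 other glycolysis genes 11 were tested, and 1 fell and 0 rose, with a median log2 change of 0.23. The one that fell was HK1, a second hexokinase, at -2.04 ± 0.56 (adjusted p = 0.0281). Its TPM was 13.8 and 7.53 in WT free and 25.0 and 19.6 in CBFB_KO free, and 72.6 and 146 in WT poly against 61.7 and 61.6 in CBFB_KO poly. LDHB, the other main lactate dehydrogenase subunit, was at -2.07 ± 0.72 (adjusted p = 0.0628). Of 11 genes for glucose and lactate transport and for the PFKFB enzymes, which set the level of fructose-2,6-bisphosphate, 9 were tested and 1 fell. It was SLC16A1, a monocarboxylate transporter (-3.91 ± 0.69, adjusted p = 0.00385), and SLC16A7, of the same family, was at -3.65 ± 1.66 (adjusted p = 0.131). In the pentose phosphate pathway 1 of 7 fell, RPE, an epimerase (-2.78 ± 0.54, adjusted p = 0.00604), and PGLS, the lactonase, was at 2.52 ± 0.82 (adjusted p = 0.0524). In the pyruvate entry list 5 of 11 fell and 0 rose, with a median of -1.64. Of these 5, PDHX, a pyruvate dehydrogenase complex component, had the lowest value (-4.22 ± 1.30, adjusted p = 0.0434), and the others were PDHA1, PDHB, DLAT and DLD (-1.64 to -3.62). MPC2, a subunit of the mitochondrial pyruvate carrier, was at 1.54 (adjusted p = 0.0512), MPC1 at 0.90 and PDK1 at 0.49. PDK4, a pyruvate dehydrogenase kinase, had 0 counts in both WT free libraries and 14 and 13 in CBFB_KO free. With the CBFB_KO poly pair as 1 sample SLC16A1 still passed (adjusted p = 0.0348), while HK1 (0.152), RPE (0.0601), PDHX (0.149), DLD (0.084), DLAT (0.127), PDHA1 (0.157) and PDHB (0.183) did not. Without CBFB_KO replicate 2 none of these 8 passed (SLC16A1 adjusted p = 0.101, RPE 0.146), and PDHA1, DLAT and PDHB passed with none of the 4 replicate numbers left out in turn.

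A few marker genes of the cells were called in this ratio too, beside the 14.3% of all genes called lower. Of the 6 genes of the basal list 2 fell, TP63 (-5.38 ± 0.71, adjusted p = 0.000841) and CDH1 (-3.82 ± 0.75, adjusted p = 0.0064), and 0 rose. Of these 2, CDH1 is not particular to basal cells. Of 3 luminal markers 1 fell, EPCAM (-3.84 ± 0.73, adjusted p = 0.00537), and KRT18 was at 1.27 ± 0.72 (adjusted p = 0.212). With the CBFB_KO poly pair as 1 sample TP63 (adjusted p = 0.0121), CDH1 (0.049) and EPCAM (0.0431) still passed, and without CBFB_KO replicate 2 TP63 passed (0.0231) while CDH1 (0.123) and EPCAM (0.109) did not. KRT14, a basal keratin, was at 2.27 ± 1.22 in the ratio (adjusted p = 0.189), and its TPM was 19.9 and 22.5 in WT poly and 131 and 133 in CBFB_KO poly (log2 2.84 ± 0.91, adjusted p = 0.927). The summed TPM of the 6 genes of the basal list ranged from 1720 to 2250 in WT free, 1650 to 4750 in CBFB_KO free (replicate 2 the lower), 3550 to 4400 in WT poly and 3530 to 3610 in CBFB_KO poly. The summed TPM of the markers of other cells was at most 3.14 in any library. Of those, 1 was tested, COL1A1 (-1.25, adjusted p = 0.453). In the free fraction the mitochondrial share moved with genotype as well, and its part in the differences of PKM, HK2, GAPDH, ALDOA and TPI1 was not tested.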

How the data were processed

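The 12 libraries hold RNA of MCF10A gradient fractions (free, mono and poly; WT and CBFB_KO). The labels name an mRNA kit and the study's general RNA-seq methods name rRNA removal, so which RNA the free fraction libraries could count is not settled. The submitters' processing notes name Trimmomatic, STAR, RSEM and hg19; their versions and the annotation release are not given in the sources used here. The authors deposited RSEM expected counts per gene without normalization, TPM values, which RSEM scales by length and library to a sum of 1000000, FPKM values, scaled by effective length and library total, and lengths and effective lengths. Notes typed beside some rows were not used.

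Groups and replicate numbers came from the titles. Gene names and GRCh38 positions came from GENCODE release 29, matched by Ensembl identifier (50276 of 56632 genes had a symbol), and no hg19 coordinates were used. Expected counts were rounded and fitted with edgeR 4.0.16 (R 4.3.3) as 6 groups over all 12 libraries after filterByExpr and TMM, with quasi-likelihood tests. Genes with a Benjamini-Hochberg adjusted p under 0.05 were called. Each standard error was derived from the fit as the size of the log2 change over the square root of its F value. DESeq2 1.42.0 was an alternative, with other size factors, no filter, blocks for replicate and gradient, the CBFB_KO poly pair as 1 sample, the compared groups alone, and each replicate left out. Libraries of 1 genotype and replicate number were treated as a gradient, an assumption. The alternatives for genes of other lists were added after seeing the data. The scripts were tested on simulated data. Transcripts were chosen as coding, by annotation rank, presence among the deposited identifiers, support and length. The smallest share that 3 counts show was 4.7e-06 to 7.3e-06 percent of a library, and p-values and shares cover these libraries only.

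The genes named were the 10 members, the 3 other glycolysis genes and 2 genes of each other list with the largest change of the poly to free ratio, the 3 genes most correlated with GAPDH and with PKM, and CBFB. PDHA1, PDHB, DLAT, DLD, MPC1, MPC2, PDK1 and KRT14 were named after their values were seen. One gene that this rule names is not reported here. The members and lists were chosen with earlier results of these data known.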

Additional observations from a re-analysis of the deposited data

Results flagged for a closer look

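For 2 members the poly to free difference itself differed between WT and CBFB_KO by edgeR's test of the interaction. HK2 had a log2 change of the ratio of -3.24 (adjusted p = 0.0243), with ratios of 3.59 and 2.84 in the WT gradients and -0.34 and -0.11 in the CBFB_KO gradients. PKM had -2.02 (adjusted p = 0.0404), with 1.05 and 0.78 in WT and -1.53 and -0.48 in CBFB_KO. The free fraction of CBFB_KO, which both values use, had mitochondrial shares of 71.56% and 87.22%, and the part of that share in these differences was not tested. Among all genes 14.3% were called lower in this comparison.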

How the results depend on the processing

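Of the 1251 values of single members under the alternatives, 1061 kept their direction and side of the threshold, 106 lost it, 36 gained it, 13 moved and 35 changed sign. The cause of the changes was not tested, except that leaving out libraries or groups leaves fewer samples. The share of all genes called under each alternative is not given beside the counts below. In the poly to free ratio the count of members lower (2) became 0 with library size alone, 1 with the gradient block, 0 with the CBFB_KO poly pair as 1 sample, 0 on the compared groups alone and 0 to 1 with a replicate left out, and the count higher (0) became 3 with DESeq2, 2 with upper-quartile factors, 3 with library size alone, 2 with no filter and 0 to 3 with a replicate left out. In the free fraction the count lower (5) became 3 with the library size outside the mitochondrial genome, 3 with no filter, 3 with the poly pair as 1 sample, 0 on the compared groups alone and 0 to 5 with a replicate left out, and the count higher (2) became 0 with library size alone, 4 outside the mitochondrial genome, 1 with the poly pair as 1 sample, 0 on the compared groups alone and 0 to 1 with a replicate left out. For poly against free in WT the count higher (5) became 3 with upper-quartile factors, 3 with the poly pair as 1 sample, 3 on the compared groups alone and 3 to 5 with a replicate left out. In CBFB_KO the count lower (0) became 1 with DESeq2, 1 with RLE and 1 with upper-quartile factors, and the count higher (7) 4 on the compared groups alone and 0 to 7 with a replicate left out. For poly against mono the WT count (7) was 0 to 7 with a replicate left out. In CBFB_KO 1 was lower on the compared groups alone, and the count higher (6) was 0 with the poly pair as 1 sample and 0 to 5 with a replicate left out.

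With library size alone the sign turned for PGK1 (0.24) and LDHA (1.10) in the poly to free ratio, PGK1 (-0.90), PKM (-0.17) and LDHA (-1.02) in the free fraction, ENO1 (-0.05) in the mono fraction, HK2 (1.97) and PKM (0.96) for poly against free in CBFB_KO, and TPI1 for poly against mono (0.49 in WT, 0.34 in CBFB_KO), and PDHB (0.02) in the poly to free ratio. With the library size outside the mitochondrial genome it turned for ENO1 in mono (-0.05) and TPI1 for poly against mono (0.42 and 0.28). With upper-quartile factors it turned for ALDOA (0.06) and TPI1 (0.10) in the poly fraction and ALDOA (-0.17), TPI1 (-0.03) and GAPDH (-0.25) for poly against free in WT. ENO1 in mono was -0.04 on the compared groups alone, and TPI1 in poly was 0.02 with the poly pair as 1 sample. As deposited TPM, the free fraction difference of mean levels was -0.75 for PKM and -3.93 for GAPDH, against 2.05 and -1.17 outside the mitochondrial genome. The gradient differences turned for GPI (-0.15) and PGAM1 (-0.37) on TPM and for PGK1 (0.89) and LDHA (0.95) on log2(FPKM + 1). With a replicate left out the values ran from -1.31 to 0.48 for HK2 in the poly to mono ratio, in mono from -0.43 to 0.07 for GPI, -0.19 to 0.39 for PGAM1, -0.28 to 0.32 for ENO1, -0.53 to 0.33 for PKM and -0.51 to 0.06 for LDHA, in poly from -0.17 to 0.10 for ALDOA and -0.17 to 0.18 for TPI1, and from -0.09 to 0.91 for GAPDH in WT poly against free.

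Nothing in the labels says that libraries with 1 number share a gradient or a day, and the differences between replicates 1 and 2 correlated between groups at r from -0.64 to 0.76 over 5978 genes (WT free with WT mono -0.39, WT free with WT poly 0.04). The ratios per gradient therefore rest on an assumed pairing, which the fit without a block does not use. With the replicate block PKM was at -1.94 (adjusted p = 0.0366) and HK2 at -3.30 (adjusted p = 0.0208) in the poly to free ratio, the counts of members called there stayed at 2 and 0 (with the gradient block PKM was at -1.93, adjusted p = 0.06), PGAM1 passed for poly against mono in CBFB_KO (1.28, adjusted p = 0.0393), and TPI1 in the poly fraction turned to 0.02. With 2 libraries a group, and 5247878 counts outside the mitochondrial genome in the shallowest, small differences were not detectable.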
